A study of Mus musculus with 8 samples.

Results

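The goblet cell genes described here are Spdef, Agr2, Muc2, Fcgbp, Tff3, Zg16 and Retnlb, 7 of the 18194 genes that have at least 1 array entry of their own. They were chosen by name, and every probe set that the platform annotation gives to 1 of them alone was used, 10 probe sets in all. RNA of small intestinal mucosa or of small intestinal tumours had been hybridised to Affymetrix mouse arrays, 8 in number. All mice were C57BL/6, carried Apc (Min/+), a mutation that gives rise to intestinal tumours, were Spint1 (flox/flox), and ate the AIN-76 diet. Spint1 encodes HAI-1, a membrane-bound inhibitor of serine proteases. The HAI-1 deficient mice carried Vil-Cre in addition, a recombinase under the villin promoter, which is active in the intestinal epithelium and not in stroma or blood cells. The control mice lacked Cre, so both genotypes share the Apc mutation and the floxed alleles. The 4 groups of 2 arrays were non-tumour mucosa of control mice, non-tumour mucosa of HAI-1 deficient mice, tumours of control mice and tumours of HAI-1 deficient mice. The sources used here give no age, sex or position along the intestine.

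Goblet cells are the mucus-secreting cells of the intestinal epithelium. They form from secretory progenitors under the transcription factors Atoh1 and, later, Spdef, and they fill the upper cell with mucin granules. Their mucin is folded in the endoplasmic reticulum, heavily glycosylated in the Golgi apparatus, and released together with small peptides and lectins that keep bacteria away from the epithelium. In Apc mutant tumours Wnt signalling stays on, and such tumours hold fewer differentiated absorptive cells than the mucosa around them.

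In tumours of control mice, 3 of the 7 genes were higher than in mucosa: Retnlb, an antimicrobial resistin-like peptide, by 6.72 on the log2 scale, Spdef by 2.25 and Agr2, the disulfide isomerase that folds mucin, by 0.95. In tumours of HAI-1 deficient mice, Spdef alone passed the test, at 1.35 higher. Of all genes tested, 28.8% were called in tumours of control mice, with 21.2% called higher. In tumours of deficient mice 4.2% were called, with 2.45% called higher. Muc2, Fcgbp, Tff3 and Zg16, which encode major proteins and peptides of the mucus, passed the test in no comparison. Loss of HAI-1 gave no call for any of the 7, in mucosa, where 1.05% of all genes were called, or in tumours, where 0.0% were. A call here is an adjusted p under 0.05 from limma, with Benjamini-Hochberg adjustment over the 13119 genes tested. All 7 genes passed the filter on low signal, a mean log2 value of 5.20.

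Spdef encodes an ETS-family factor whose preferred core, GGAT, differs from the GGAA core of most ETS factors. Promoters are shown for Spdef and Agr2, the 2 of the 3 rising genes with a matched promoter entry. Both are the 250 bases before the gene start in RefSeq on GRCm38.p6, written 5′ to 3′ on the strand of the gene, with each GGAT on either strand in capitals, so that a match on the opposite strand reads ATCC.
Spdef promoter (chr17:27728952-27729201, minus strand): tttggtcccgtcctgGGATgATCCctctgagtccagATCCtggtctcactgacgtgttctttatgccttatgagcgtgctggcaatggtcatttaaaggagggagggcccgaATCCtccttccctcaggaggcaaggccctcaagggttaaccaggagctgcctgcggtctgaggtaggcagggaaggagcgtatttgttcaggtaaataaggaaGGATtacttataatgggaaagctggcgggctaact
Agr2 promoter (chr12:35992675-35992924, plus strand): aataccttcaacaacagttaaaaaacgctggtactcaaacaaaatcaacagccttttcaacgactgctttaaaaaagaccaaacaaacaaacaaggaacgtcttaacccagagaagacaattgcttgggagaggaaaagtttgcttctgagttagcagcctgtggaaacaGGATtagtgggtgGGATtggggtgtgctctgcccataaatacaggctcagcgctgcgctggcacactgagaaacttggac
The Spdef promoter holds 5 such matches and the Agr2 promoter 2. The letters are common: 74.2% of 27025 mouse promoters of this length hold at least 1. The letters TTTATG, searched on both strands for the intestinal CDX factors, occur once in each, against 11.1% of all promoters. No match to TGTTTAC, searched for FOXA factors, or to CTTTGA, searched for the Wnt-responsive TCF and LEF factors, lies in either window, on either strand. Promoter entries were matched for 4 of the 7 genes, the others being Muc2 and Fcgbp with 4 and 2 GGAT matches. These are matches of letters and were not tested as binding sites.

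Signals are given as log2 values, so 1 unit is a doubling, and levels are compared only between arrays within 1 probe set. Arrays of a group are called 1 and 2 after their labels. Spint1 itself read 12.75 to 13.06 on the 4 control arrays and 11.76 to 12.46 on the 4 deficient arrays, so no deficient array reached a control array. Epithelial markers were bright on every array, with a summed linear signal over 10 genes of 195259 to 230187 on mucosal and 203292 to 223939 on tumour arrays. The ratio of the 3′ to the 5′ Gapdh probe set, a measure of RNA integrity, was 25.9 on array 2 of the control tumours and 0.803 to 1.77 elsewhere. A second difference lay in the poly-A control transcripts added during labelling, which read 7.67 to 8.19 on array 2 of the control mucosa, of the deficient mucosa and of the deficient tumours, and 6.08 to 6.93 on the other 5. The 18S ribosomal RNA signal was 14.6 and 13.6 on array 2 of the control and of the deficient mucosa and 7.61 to 10.1 on the other 6 arrays, and its part in the differences below was not tested. Since no label ties an array to a mouse, p-values measure the spread between these samples, which may be technical.

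**Figure D1:**
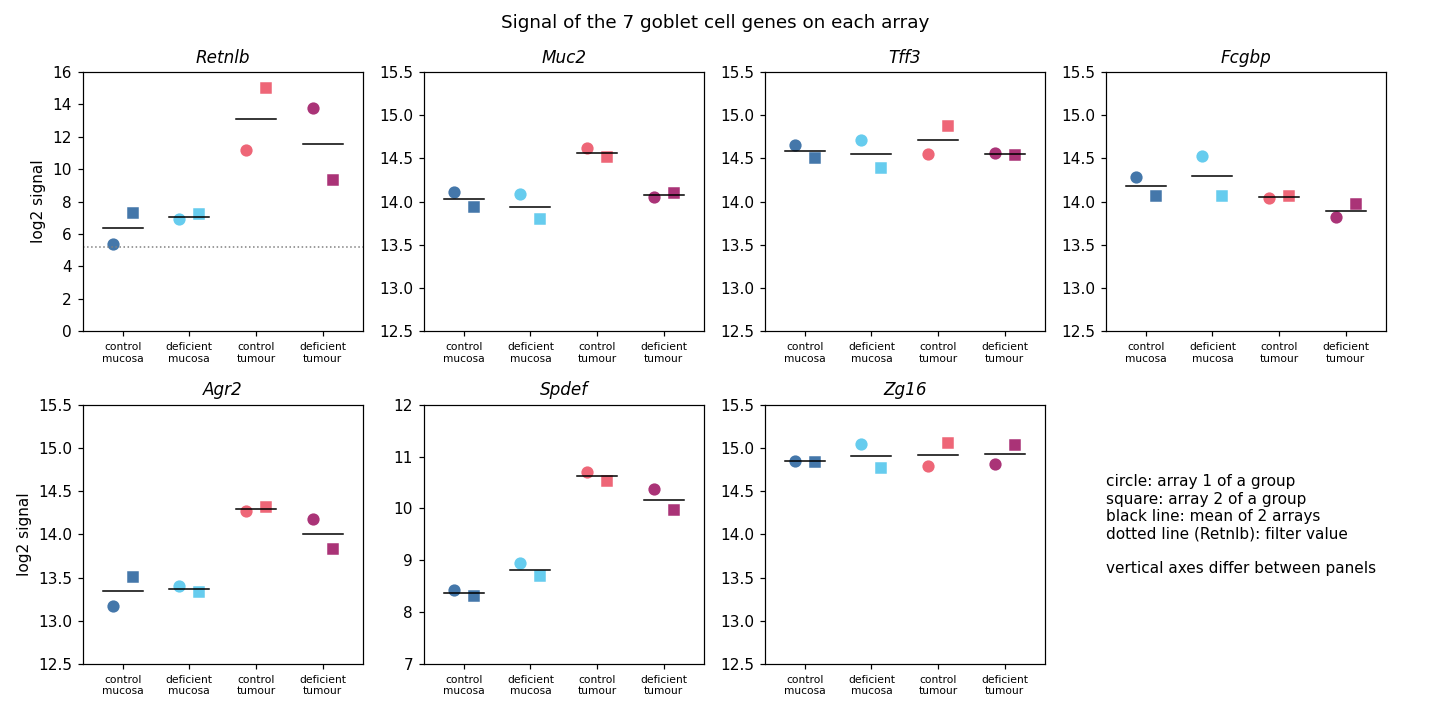
Log2 signal of each goblet cell gene (vertical axis; the range differs between panels) on the 8 arrays, grouped by genotype and tissue (horizontal axis); circles and squares are arrays 1 and 2 of a group, and black lines are means of 2 arrays. On the probe sets shown, the brightest of each gene, Retnlb, Spdef and Agr2 are higher on all 4 tumour arrays than on all 4 mucosal arrays. The 2 Retnlb values within each tumour group lie 3.82 and 4.42 apart on the log2 scale.

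Spdef, the ETS factor that drives goblet cell maturation, read 8.42 and 8.31 in control mucosa and 10.70 and 10.54 in control tumours. In HAI-1 deficient mice it read 8.95 and 8.69 in mucosa and 10.37 and 9.97 in tumours. Every tumour array lay above every mucosal array, and the arrays of a group lay within 0.40 of each other. The difference between tumours and mucosa was 2.25 ± 0.25 (SE, 2 arrays a group) in control mice, a 4.75-fold higher signal (limma adjusted p = 0.00183), and 1.35 ± 0.25 in deficient mice, a 2.55-fold higher signal (adjusted p = 0.0386). The call in deficient mice ended when any 1 of the 8 arrays was left out, with adjusted p between 0.0555 and 0.130. Averaged over genotypes it was 1.80 ± 0.18 (adjusted p = 0.000855), and the exact two-sided permutation test of 4 tumour against 4 mucosal arrays gave an unadjusted p = 0.0286, the smallest that 70 assignments allow. It is 1 of 14 such tests on these genes.

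Agr2 is an endoplasmic reticulum disulfide isomerase needed for Muc2 to mature. Its brighter probe set read 13.18 and 13.51 in control mucosa and 14.27 and 14.32 in control tumours. Deficient mucosa read 13.40 and 13.33 and deficient tumours 14.18 and 13.83. On this probe set too, all 4 tumour arrays lay above all 4 mucosal arrays. The tumour difference was 0.95 ± 0.25 in control mice (1.93-fold, limma adjusted p = 0.0280) and 0.64 ± 0.25 in deficient mice, which did not pass (adjusted p = 0.171; 95% confidence interval 0.05 to 1.22). Averaged over genotypes it was 0.79 ± 0.18 (adjusted p = 0.0122; exact permutation p = 0.0286). The call in control mice was lost when any 1 of the 4 control arrays was left out, with differences of 0.79 to 1.12 and adjusted p between 0.0548 and 0.137. The second Agr2 probe set, of the x_at type whose probes can match other sequences, read 10.75 and 11.44, then 12.76 and 12.58, in control mucosa and tumours. In deficient mice it read 11.10 and 11.65 in mucosa but 12.70 and 9.82 in tumours, the last below every mucosal array. Its deficient tumour arrays thus lay 7.36-fold apart, where those of the brighter probe set lay within 0.35 on the log2 scale. The tumour difference of the second probe set was 1.57 in control mice. It did not pass in a limma fit of all probe sets over the filter value (adjusted p = 0.222). In deficient mice that difference was -0.12, with an interval of -2.06 to 1.83.

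Muc2, the gel-forming mucin that is the main component of intestinal mucus, read 14.11 and 13.94 in control mucosa and 14.62 and 14.51 in control tumours. In deficient mice it read 14.09 and 13.80 in mucosa and 14.05 and 14.10 in tumours. The control tumours were the highest group, above all 6 other arrays, and the deficient tumours overlapped both mucosal groups. The tumour difference was 0.54 ± 0.24 in control mice (limma adjusted p = 0.127; interval -0.01 to 1.09) and 0.13 ± 0.24 in deficient mice (adjusted p = 0.774; interval -0.42 to 0.68). A doubling of the Muc2 signal in deficient tumours lies outside that interval, and saturation was not tested.

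Fcgbp encodes a large secreted protein of the mucus gel that associates with Muc2. It read 14.28 and 14.07 in control mucosa and 14.04 and 14.07 in control tumours. On the deficient arrays the mucosa gave 14.53 and 14.06 and the tumours 13.82 and 13.97. Deficient tumour values were lowest and did not overlap the deficient mucosa, while the control groups overlapped. The tumour difference was -0.12 ± 0.26 in control mice (limma adjusted p = 0.758) and -0.40 ± 0.26 in deficient mice (adjusted p = 0.372).

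Tff3, the trefoil peptide of intestinal goblet cells, which aids repair of the epithelium, read 14.65 and 14.51 in control mucosa and 14.55 and 14.87 in control tumours. In deficient mice it read 14.71 and 14.38 in mucosa and 14.56 and 14.54 in tumours, and all groups overlapped. Its tumour difference was 0.13 ± 0.25 in control mice, with an interval of -0.45 to 0.71, and 0.01 ± 0.25 in deficient mice, with an interval of -0.58 to 0.59.

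Zg16, a lectin that binds and aggregates Gram-positive bacteria in mucus, has 3 probe sets. The brightest read 14.85 and 14.84 in control mucosa and 14.79 and 15.05 in control tumours. With HAI-1 deficiency the mucosa read 15.04 and 14.77 and the tumours 14.82 and 15.03. The arrays overlapped in every comparison, and the tumour differences were 0.07 ± 0.25 in control and 0.02 ± 0.25 in deficient mice. The other probe sets ranged from 14.61 to 14.98 and from 14.74 to 15.03. For Muc2, Fcgbp, Tff3 and Zg16 alike, the values lay near the top of the scale: on every array their used probe sets lay at or above percentile 98.9 of all signals, where the brightest signal was 15.17 to 15.51, and saturation of these spots was not tested.

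Retnlb, also known as RELM-beta, is a secreted resistin-like peptide of goblet cells that kills bacteria and is induced by type 2 cytokines and by bacterial colonisation. It read 5.40 and 7.32 in control mucosa, and 11.17 and 14.99 in control tumours. In deficient mice it read 6.93 and 7.23 in mucosa, and 13.77 and 9.35 in tumours. Every tumour array lay above every mucosal array, and yet the 2 control tumours differed 14.1-fold and the 2 deficient tumours 21.4-fold. The lowest control mucosa value was close to the filter value of 5.20, where signals of this kind are least precise. The tumour difference was 6.72 ± 1.60 in control mice (limma adjusted p = 0.0195; interval 2.98 to 10.45) and 4.48 ± 1.60 in deficient mice, which did not pass (adjusted p = 0.141; interval 0.74 to 8.22). Averaged over genotypes it was 5.60 ± 1.13 (adjusted p = 0.00838; exact permutation p = 0.0286). The call in control mice was lost without array 1 of the mucosa (5.75, adjusted p = 0.0988) and without array 2 of the tumours, the one with the high Gapdh ratio (4.81, adjusted p = 0.0980). Among arrays with low poly-A control signal the tumour difference was 7.68 in control and 6.84 in deficient mice, and on the 2 deficient arrays with high signal it was 2.11.

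Set against all genes, tumours and mucosa of control mice differed in 28.8% of the genes tested, and 21.2% were called higher. The 3 of 7 goblet cell genes called there were all higher, and the median difference of the 7 was 0.54 against 0.24 for all genes. In deficient mice 4.2% of genes were called and 2.45% called higher, with 1 of the 7 among them and a median of 0.13 against 0.18. Averaged over genotypes, 35.8% were called and 25.7% called higher, with Retnlb, Spdef and Agr2 among them and a median of 0.33 against 0.20. On the brightest probe set of each gene, the groups did not overlap for 4 genes in control mice (Retnlb, Spdef, Agr2 and Muc2). They did not overlap for 4 in deficient mice (Retnlb, Spdef, Agr2 and, in the other direction, Fcgbp), and for 3 over both genotypes. Over all genes tested, the groups did not overlap for 68.9% in control mice, 55.4% in deficient mice and 33.3% over both, so these counts are no result about the 7 genes. In bulk tissue a change in the number of goblet cells and a change in RNA per goblet cell cannot be told apart.

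**Figure D2:**
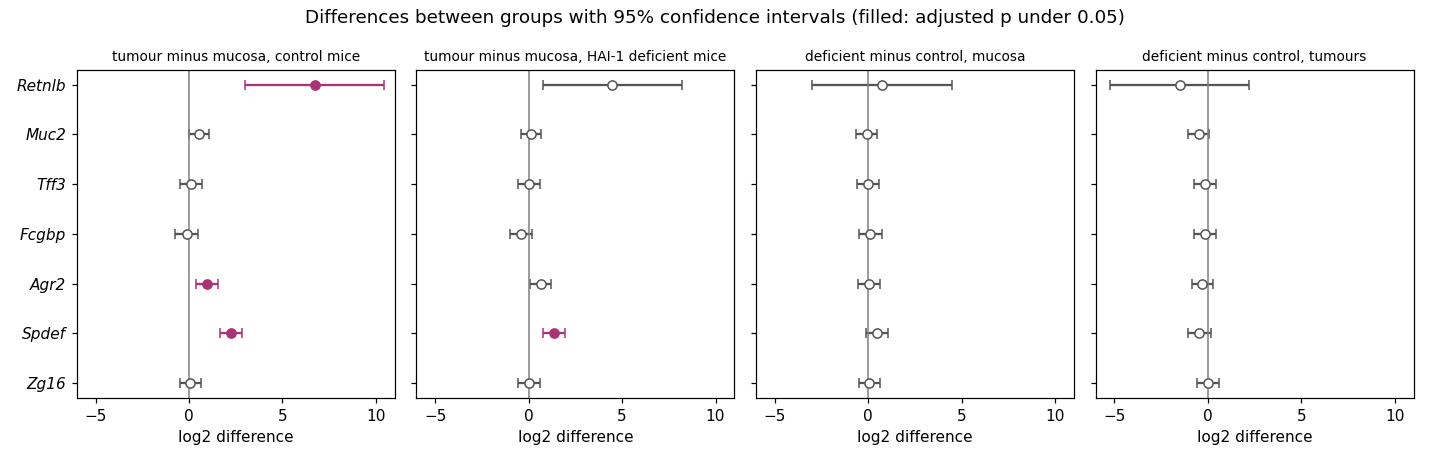
Log2 difference of each goblet cell gene (horizontal axis) in 4 comparisons, with 95% confidence intervals from the limma fit; filled points passed the adjusted p threshold of 0.05 and open points did not. Filled points are Retnlb, Agr2 and Spdef in control mice and Spdef in HAI-1 deficient mice, and both comparisons of deficient with control mice hold open points throughout.

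The effect of HAI-1 loss is the genotype comparison of the design. In non-tumour mucosa, where 1.05% of all genes were called, 0 of the 7 passed limma's test (adjusted p 0.424 to 0.977, 0 with an unadjusted p under 0.05), and their median difference was 0.06 against 0.11 for all genes. The groups failed to overlap for Spdef alone of the 7, against 48.1% of all genes; it was higher by 0.45 ± 0.25 in deficient mucosa (interval -0.14 to 1.04). Of the others, Retnlb differed by 0.72 ± 1.60 and the 5 bright genes by -0.08 to 0.12. On the used probe sets, the intervals of these 5 genes lay within -0.63 and 0.72, leaving out a doubling of signal in either direction. That of Retnlb ran from -3.02 to 4.46. The second Agr2 probe set differed by 0.28, with an interval of -1.66 to 2.23 that holds a doubling. Saturation of the bright spots was not tested.

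In tumours HAI-1 loss gave calls for 0.0% of all genes at the adjusted threshold, with 802 of 13119 at an unadjusted p under 0.05, so 0 calls among the 7 match the background. The deficient tumours lay below the control tumours without overlap for Spdef (-0.45 ± 0.25), Muc2 (-0.49 ± 0.24), Agr2 (-0.29 ± 0.25) and Fcgbp (-0.16 ± 0.26), with limma adjusted p of 0.779 to 0.886. Such a lack of overlap held for 38.0% of all genes here. On the second Agr2 probe set the tumour groups overlapped, with 12.76 and 12.58 in control and 12.70 and 9.82 in deficient tumours. Its difference was -1.41, with an interval of -3.35 to 0.54. The median of the 7 was -0.29 against -0.01 for all genes. Retnlb differed by -1.52 ± 1.60, and the sign turned without array 2 of the control tumours (0.39) or array 2 of the deficient tumours (0.69), so no direction can be given for it. Averaged over tissues, calls again covered 0.0% of genes (2136 at an unadjusted p under 0.05), and the exact permutation p of the 7 ranged from 0.2 to 1.

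Whether the tumour difference depended on genotype was tested as an interaction, the deficient minus the control difference. Calls made up 0.0% of all genes, with 1211 at an unadjusted p under 0.05, and 0 of the 7 passed in limma. Spdef came closest at -0.90 ± 0.36 (unadjusted p = 0.0389, adjusted p = 0.512; interval -1.74 to -0.06): it was higher with HAI-1 loss in both mucosal arrays and lower in both tumour arrays. For Retnlb the interaction was -2.24 ± 2.27. The calls of Retnlb and Agr2 in control mice therefore come with no shown difference between genotypes.

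**Figure D3:**
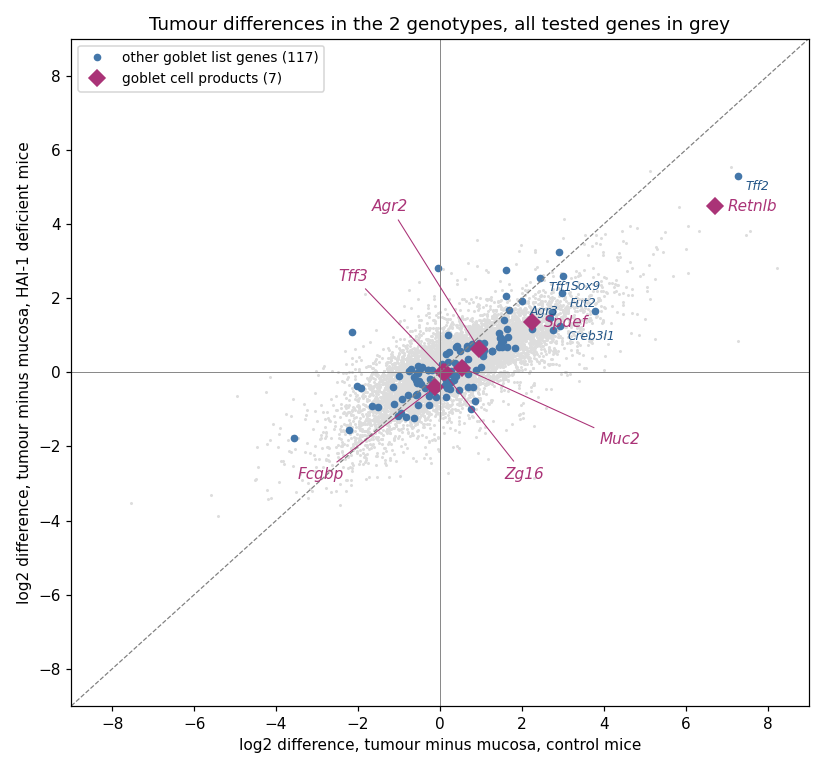
Log2 difference between tumours and mucosa in control mice (horizontal axis) and in HAI-1 deficient mice (vertical axis) for all 13119 tested genes (grey), 117 genes of the other goblet cell lists (blue) and the 7 goblet cell genes (purple); the dashed line marks equal differences. Retnlb sits beside Tff2 at the upper right, Spdef at 2.25 and 1.35, and Tff3, Zg16, Muc2 and Fcgbp lie near 0.

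Several goblet cell genes lie beside close relatives, which are described here for their family and position, with their values known. Tff2 and Tff1, trefoil peptides that are typical of stomach mucus, lie directly beside Tff3 in the gene order. Tff2 read 3.85 and 5.71 in control mucosa and 12.04 and 12.07 in control tumours. In HAI-1 deficient mice the mucosa read 7.89 and 7.72 and the tumours 14.29 and 11.90. It rose by at least 6.60 in control tumours with the lowest array raised to the filter value (fitted difference 7.27 ± 0.81, limma adjusted p = 0.00178) and by 5.29 ± 0.81 in deficient tumours (adjusted p = 0.0287). In deficient mucosa it was at least 2.35 above control mucosa (fitted 3.02 ± 0.81), short of a call (adjusted p = 0.115). Tff1 rose by 2.45 ± 0.54 in control tumours (adjusted p = 0.0142) and 2.56 ± 0.54 in deficient tumours (adjusted p = 0.0474), while Tff3 differed by 0.13 and 0.01.

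Retnla, the resistin-like gene next to Retnlb, read 3.62 and 4.94 in control mucosa and 6.67 and 7.43 in control tumours. In HAI-1 deficient mice the mucosa read 4.68 and 4.86 and the tumours 6.30 and 5.56. It rose in control tumours by at least 1.85 (fitted 2.77 ± 0.49, limma adjusted p = 0.00693). All 4 mucosal arrays lay under the filter value, so Retnla passed the filter only through its tumour arrays. Its p-value is therefore no independent support for a rise. Muc5ac, the stomach and airway mucin gene beside Muc2, read 4.09 and 2.12 in control mucosa and 7.97 on both arrays of deficient mucosa. Its tumour values were 5.06 and 2.84 in control mice and 5.10 and 9.32 in deficient mice. The mucosal difference with HAI-1 loss, at least 2.77 with the control arrays raised to the filter value, did not pass (adjusted p = 0.122). On all 4 control arrays Muc5ac lay under the filter value, so it passed the filter only through deficient arrays. That p-value is therefore no independent support either way. Agr3, the neighbour and closest relative of Agr2, read 6.30 and 6.62 in control mucosa against 8.72 and 8.20 in control tumours, and 6.44 and 6.72 against 8.46 and 8.53 in deficient mice. It passed in both genotypes, at 2.01 ± 0.28 (adjusted p = 0.00334) and 1.92 ± 0.28 (adjusted p = 0.0281), and the call in deficient mice ended in 6 of the 8 fits that left out 1 array (adjusted p up to 0.113). In deficient mice the call of Tff2 ended in 5 of these fits and that of Tff1 in 6; in control mice that of Tff1 ended without either control mucosal array (adjusted p up to 0.0641).

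**Figure D4:**
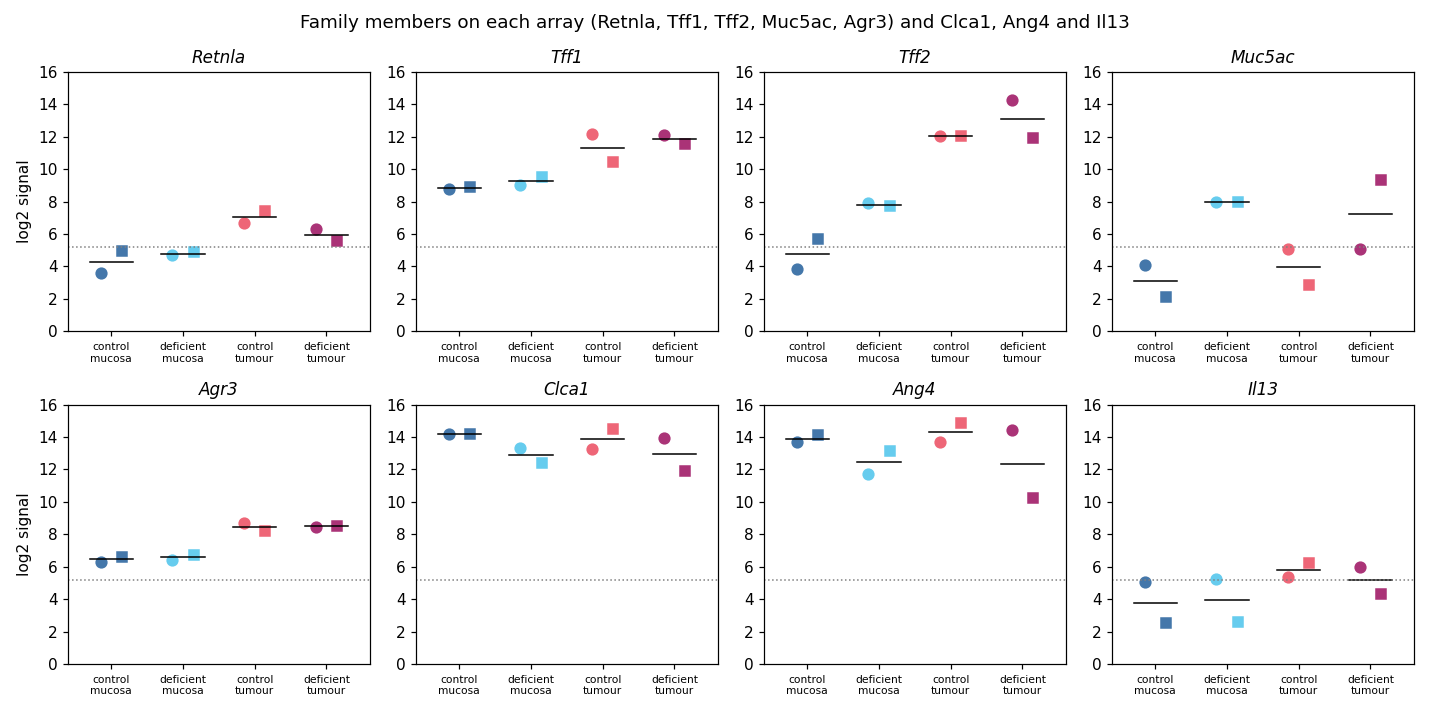
Log2 signal (vertical axis) on the 8 arrays by group (horizontal axis) of Retnla, Tff1, Tff2, Muc5ac and Agr3, which lie beside goblet cell genes, and of Clca1, Ang4 and Il13; circles and squares are arrays 1 and 2, black lines are means and the dotted line is the filter value of 5.20. Tff2 and Agr3 are higher on every tumour array than on every mucosal array, and Ang4 and Clca1 are lowest on array 2 of the deficient tumours.

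Other genes of the goblet cell programme were followed in 6 lists, of which 117 of 127 genes with a probe set were tested. In control tumours 33 were higher, 8 were lower and 76 did not pass, where 28.8% of all genes were called and 21.2% were higher; the median was 0.25 against 0.24 for all genes. In deficient tumours 9 were higher, 2 lower and 106 did not pass, where 4.2% of all genes were called, and the median was 0.07 against 0.18. The first count of higher genes fell in each fit that left out 1 of the 4 control arrays, while that of lower genes fell in only some of them. The second fell to 0 without either control or either deficient mucosal array or array 1 of the deficient tumours, and to 1 higher without array 2 of the deficient tumours, and it was also 0 with no filter on low values or a fit to only the groups compared. Averaged over genotypes, the largest rises were those of Tff2 (fitted 6.28 ± 0.57), the protease inhibitor gene Wfdc2 (3.08 ± 0.51) and Sox9 (2.80 ± 0.30), with limma adjusted p of 0.000680 to 0.00392. The largest falls there were those of St3gal4 (-2.67 ± 0.52), Il22ra1 (-1.88 ± 0.17) and the chemokine gene Ccl28 (-1.28 ± 0.27), with limma adjusted p of 0.000686 to 0.00905. With HAI-1 loss in mucosa, Chst4 alone of the 117 passed, where 1.05% of all genes were called. Chst4 encodes a sulfotransferase that acts on mucin-type sugars. It read 8.64 and 8.61 in control and 11.30 and 10.62 in deficient mucosa, a rise of 2.33 ± 0.30 (limma adjusted p = 0.0348). That call ended in the 6 fits that left out 1 array of the control mucosa, the control tumours or the deficient mucosa, with adjusted p up to 0.109. In tumours HAI-1 loss gave 0 calls among the 117, where 0.0% of all genes were called.

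Of 20 genes that control goblet cell differentiation, 6 rose and 2 fell in control tumours, with a median of 0.30. The share of all genes called was 28.8% in control tumours and 4.2% in deficient tumours. Sox9, a Wnt target of the crypt base, rose from 6.75 and 7.64 to 10.29 and 10.11 (SE of the log2 difference 0.42, limma adjusted p = 0.00345), and Creb3l1, an endoplasmic reticulum stress factor, by 2.94 ± 0.44 (adjusted p = 0.00408). Ern2, the epithelial stress sensor IRE1-beta, rose by 2.25 ± 0.30 (adjusted p = 0.00295) and Foxa3 by 1.57 ± 0.28 (adjusted p = 0.00689). Klf4, a factor of mature goblet cells, fell by 0.92 ± 0.27 (adjusted p = 0.0419), a call that no fit with 1 array left out kept (adjusted p 0.0515 to 0.195). Atoh1, the factor that commits progenitors to the secretory lineage, read 9.13 and 9.74 in control mucosa and 9.45 and 10.12 in control tumours, a difference of 0.35 ± 0.51 (adjusted p = 0.639). In deficient tumours 4 of the 20 rose and 1 fell, with Sox9 at 2.61 ± 0.42 (adjusted p = 0.0303), Foxa3 at 1.42 ± 0.28 (adjusted p = 0.0402) and the Notch ligand Dll1 at -1.18 ± 0.24 (adjusted p = 0.0423). The differences of Creb3l1 (1.25), Ern2 (1.16), Klf4 (-0.71) and Atoh1 (-0.20) did not pass there. No call of a goblet list gene in deficient tumours held with no filter on low values or with a fit to only the groups compared.

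Mucin glycosylation held 11 rises and 1 fall among 32 tested genes in control tumours, with a median of 0.32, and 1 rise in deficient tumours, the fucosyltransferase gene Fut2 at 2.13 ± 0.36 (limma adjusted p = 0.0312). The fall was St3gal4, a sialyltransferase, at -3.56 ± 0.74 (adjusted p = 0.0121): it read 14.51 and 14.42 in control mucosa against 12.23 and 9.59 in control tumours. Protein folding and granule release held 5 rises and 2 falls among 27 in control tumours, with a median of -0.16. For both lists the share of all genes called was 28.8% in control tumours and 4.2% in deficient tumours. Pdia3, a general disulfide isomerase, fell by 2.02 ± 0.51 (adjusted p = 0.0246), from 13.41 and 13.20 to 12.15 and 10.43. For both falling genes the lower tumour value was that of array 2, which had the Gapdh ratio of 25.9, and its part in these differences was not tested. The call of Pdia3 ended without that array and without either control mucosal array (adjusted p up to 0.101). Of the 8 fits that left out 1 array, St3gal4 missed the threshold in the fit without array 1 of the control mucosa (adjusted p = 0.0559).

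Among 23 other goblet cell products, 5 rose and 1 fell in control tumours, where 28.8% of all genes were called. In deficient tumours 2 rose, where 4.2% were called. Clca1, a metalloprotease of mucus, read 14.17 and 14.21 in control mucosa and 13.26 and 14.52 in control tumours. In HAI-1 deficient mice the mucosa read 13.32 and 12.43 and the tumours 13.96 and 11.94. The 2 deficient mucosal arrays lay below the control mucosa, by 1.31 ± 0.69 (limma adjusted p = 0.390), and the tumour groups overlapped. Of 14 tested genes of type 2 and mucosal cytokine signals, 5 rose and 2 fell in control tumours. The eosinophil chemokine Ccl11 rose most, by 3.78 ± 0.58 (adjusted p = 0.00455), and Il22ra1, the epithelial interleukin-22 receptor chain, fell by 2.21 ± 0.24 (adjusted p = 0.00178) and in deficient tumours by 1.56 ± 0.24 (adjusted p = 0.0297). Gata3 lay under the filter value on all 4 mucosal arrays and passed the filter only through its tumour arrays. Its rise in deficient tumours was at least 1.44 (fitted 2.76 ± 0.51, limma adjusted p = 0.0366). That p-value is therefore no independent support for a rise. Il4ra, the receptor chain for interleukins 4 and 13, differed by 0.33 ± 0.34 and -0.10 ± 0.34 in the tumours of control and deficient mice and did not pass.

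Several secretory genes also varied between arrays of a tumour group, as noticed after the values were seen. Il13, a type 2 cytokine gene that was too dim to be tested, read 5.36 and 6.23 in control tumours and 6.00 and 4.33 in deficient tumours, with the lowest value under the filter value, so its values give no order. Ang4, an antimicrobial ribonuclease of Paneth and goblet cells, read 13.70 and 14.89, then 14.43 and 10.24. Array 2 of the control tumours was highest and array 2 of the deficient tumours lowest for 37 of the 117 list genes (31.6%) and for 18.0% of all genes tested, so the order was not restricted to goblet cell genes. Of the 7, Retnlb, Agr2 and Tff3 had that order, while Spdef, Muc2, Fcgbp and Zg16 did not.

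Other cell types differed between tumours and mucosa as well. The counts below stand beside 28.8% of all genes called in control tumours, with 21.2% called higher. Fibroblast markers summed to 5802 to 7931 on mucosal arrays, 30669 to 34641 in control tumours and 22622 to 23420 in deficient tumours (10 genes, of which 9 rose and 1 fell in control tumours). Enterocyte markers, which mark absorptive cells, summed to 243064 to 289290 in mucosa and 160602 to 206990 in tumours (12 genes, 5 lower in control tumours), and stem cell markers to 7860 to 15800 and 20752 to 30746 (8 genes, 5 higher). Leukocyte markers summed to 47502 to 47927 in control tumours but 35819 and 7685 in deficient tumours. The low value was on array 2, which also had the lowest Retnlb of the tumours. The 2 control tumours had close sums, though their Retnlb differed 14.1-fold. In mucosa the leukocyte markers summed to 4114 to 13249 (12 genes, 2 higher and 2 lower in control tumours). Their median tumour difference was -0.04 in control and -0.33 in deficient mice, against 0.24 and 0.18 for all genes. The higher sums were thus carried by part of the list. Smooth muscle markers summed to 1266 to 4680 in mucosa and 9558 to 14937 in tumours (all 7 tested genes higher in control tumours). Stomach markers, a list that holds Tff1, Tff2 and Muc5ac, summed to 1356 to 1611 in control mucosa, 5127 to 8387 in deficient mucosa, 24262 to 33835 in control tumours and 38052 to 48124 in deficient tumours (5 of 9 higher in control tumours). Marker lists of intestinal regions had lower sums in tumours than in mucosa of the same genotype. The ileum list summed to 9583 to 19332 in mucosa and 2676 to 4076 in tumours (3 of 4 lower in control tumours). The colon list summed to 12856 to 21938 in mucosa and 3671 to 5575 in tumours (1 of 4 lower). The proximal intestine list summed to 59067 to 71538 in mucosa and 37756 to 61286 in tumours (3 of 8 lower and 2 higher in control tumours). The colon-defining Hoxb13, Hoxd10 and Hoxd11 lay under the filter value on all arrays of every group. The part of these cell types in the differences of the goblet cell genes was not tested.

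**Figure D5:**
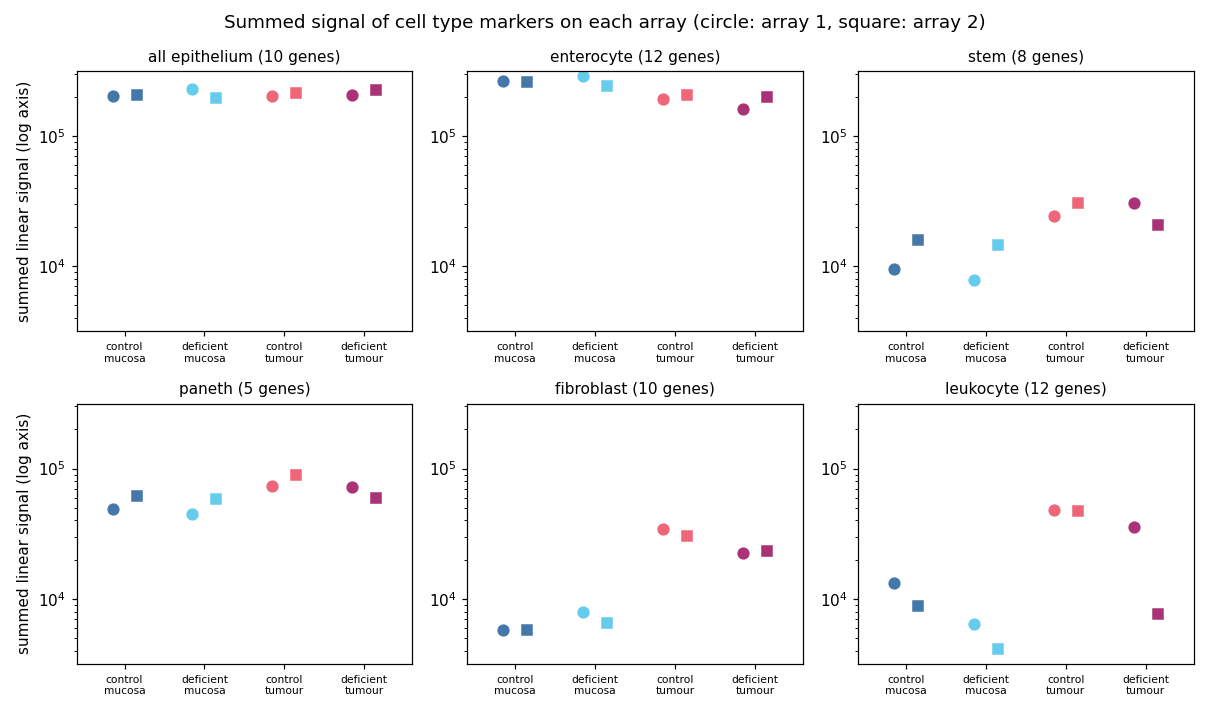
Summed linear signal of marker genes of 6 cell types (vertical log axis) on the 8 arrays by group (horizontal axis); circles and squares are arrays 1 and 2. Epithelial sums stay between 195259 and 230187, fibroblast sums are higher in all 4 tumours, and the leukocyte sum of array 2 of the deficient tumours lies at 7685.

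The genes most like each member across the 8 arrays were ranked by Pearson correlation, as a description. Spdef was most like Vcan (r = 0.996), Rpp30, Sfrp1, St8sia6 and Col3a1, among them genes of the stromal matrix. Agr2 was most like Adsl (r = 0.997), Fam117a, Nab1, Mrpl22 and Tnfaip8, and Retnlb most like Me1 (r = 0.992), Mrps14, Taf9b, Cops8 and Rpa3. Muc2 was most like Exoc3l2 (r = 0.969), Fyn, Poln, Fam102b and Nuak1. The narrow genes had lower best values, with Fgf11 at 0.934 for Tff3, before Mapre3, Bhlha15, Cmpk1 and St6gal1. Epor stood at 0.936 for Fcgbp, before Osbpl1a, Cyp4f16, Fabp1 and Crip1, and Atp5g3 at 0.957 for Zg16, before Krt8, Prap1, Sod1 and Tkt. Among the 7 themselves, Spdef and Agr2 correlated at 0.953, Retnlb and Agr2 at 0.945, Retnlb and Spdef at 0.887, and Tff3 and Zg16 at 0.716. All points share the 8 arrays and the tumour difference, so these values follow the grouping of the samples.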

How the data were processed

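RNA of 8 samples, 2 in each of 4 groups, was measured on Affymetrix mouse arrays. The authors deposited log2 signals for 45101 probe sets; MAS5 and RMA are both named, without version or role, per the submitters' processing notes. The values are of the MAS5 kind: the linear mean with 2% trimmed at each end was 500 on every array. They were used without further scaling. Such signals are imprecise when low, which inflates the fold of a dim gene.

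Probe sets under the 40th percentile of the mean log2 value (5.20) were removed, the brightest single-gene probe set was kept for each gene, and symbols were updated through gene identifiers. A mean per group was fitted with limma 3.58.1 in R 4.3.3 (4 residual and 3.52 prior degrees of freedom), with 7 contrasts, two-sided tests and Benjamini-Hochberg adjustment over 13119 genes. The code was tested on simulated data. Where an array lay under 5.20, a difference is given as at least that with the array raised to 5.20. The number of arrays limits the precision.

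All 7 members were named, with the 5 genes most like each. Of the lists, the called genes were named where 6 or fewer, otherwise the 3 largest rises and falls, with Atoh1, Klf4, Clca1, Ern2, Creb3l1, Foxa3, Il13 and Il4ra, and neighbouring relatives. The members and lists were chosen with earlier results of these data known. The labels do not say whether equal replicate numbers pair the samples. Correlations of same-numbered deviations between groups ranged from -0.138 to 0.220. With 2 arrays a group these cannot show whether samples came from the same mice. Alternatives were other scaling, filters, probe set rules, a variance trend, batch and block terms and leaving out each array.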

Additional observations from a re-analysis of the deposited data

Results flagged for a closer look

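Spdef was higher with HAI-1 loss on both mucosal arrays and lower on both tumour arrays. Retnlb, Agr2 and Fcgbp also had fitted differences of opposite sign in the 2 tissues, but their arrays overlapped in mucosa. Spdef read 8.42 and 8.31 in control and 8.95 and 8.69 in deficient mucosa, but 10.70 and 10.54 in control and 10.37 and 9.97 in deficient tumours. The difference between these effects was -0.90 ± 0.36 on the log2 scale (limma, unadjusted p = 0.0389, adjusted p = 0.512), so it did not hold after adjustment over all genes.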

How the results depend on the processing

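Under the 19 alternatives, no called difference of the 7 genes changed sign, while 68 of 868 gene differences under an alternative did, all of them uncalled. Over all comparisons and alternatives calls were lost 25 times and gained 1 time, Muc2 in control tumours with a mean-variance trend (adjusted p = 0.0455). The 3 calls in control tumours fell to 1, Spdef, with no filter on low signal, and ranged from 1 to 3 when 1 array was left out. The 1 call in deficient tumours fell to 0 with median centring, with no filter, with the mean of probe sets, with a fit to only the groups compared, and in each fit that left out 1 array. Agr2 in control tumours also missed the threshold with median centring (0.83, adjusted p = 0.0960), the mean of probe sets (1.26, adjusted p = 0.107) and a batch term for the poly-A control signal (0.94, adjusted p = 0.0560), and both Agr2 (adjusted p = 0.0655) and Retnlb (adjusted p = 0.0603) did with no filter. Averaged over genotypes, Agr2 missed it with median centring (0.69, adjusted p = 0.0501) and the mean of probe sets (0.76, adjusted p = 0.144), and Retnlb and Spdef passed in every alternative run. Median centring moved the median of all genes from 0.24 to 0.12 in control tumours and from 0.11 to -0.08 with HAI-1 loss in mucosa. With HAI-1 loss in tumours it moved from -0.01 to -0.15. The higher share of calls in deficient tumours was 58.3% as deposited, 48.6% with median centring and 47.8% with quantile normalization.

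A replicate block gave 3 calls in control tumours, 1 in deficient tumours and 3 averaged over genotypes, as without it. The crossed pairing of the deficient tumours, tried after seeing the data, gave 0 calls with HAI-1 loss in tumours. With 2 arrays a group the standard error of a Retnlb difference was 1.60 on the log2 scale, so only large differences of this gene could pass.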
